A study of Rattus norvegicus with 10 samples.

Results

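Ppp3ca encodes the alpha catalytic subunit of calcineurin. One of its 3 probe sets was the reference for 324 probe sets whose hippocampal levels correlated with it over 10 arrays. All 324 were lowest in the same single array, and without that array most did not follow Ppp3ca closely. They were selected on measured values, as the probe sets with a standard deviation (SD) above 0.01 log2 units over the 10 arrays and a Pearson correlation (r) of 0.9 or more with the Ppp3ca probe set. Control probe sets were left out. The 324 include the reference itself and are 11.2% of the 2904 probe sets that varied by this measure, out of 31042 on the array. One symbol was carried by 239 of them, for 236 genes. Several symbols were carried by 6, which are mostly a gene and its pseudogenes and cannot be told apart, and 79 had no name in the annotation used. Atp2b1, Dclk1 and Tiam1 were each represented by 2 of the 324 probe sets.

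The arrays came from male Wistar rats aged 3 weeks at the start, 5 in the C-group, given solid chow, and 5 in the P-group, given powdered feed, for 8 days. All 10 rats had first been given powdered feed for a short acclimatization, no genotype or drug differed between the groups, and the labels give the age at sampling as 4 weeks. One Affymetrix rat genome array was made from 100 ng of total RNA of each whole hippocampus. The study asked how the texture of the diet after weaning, which changes the amount of chewing, affects the hippocampus. Rats are named here by group and replicate number, C1 to C5 and P1 to P5.

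Calcineurin is a phosphatase switched on by calcium and calmodulin. It consists of a catalytic subunit, of which Ppp3ca is the main form in forebrain neurons, and a small calcium-binding subunit. It removes phosphates from the NFAT and CRTC transcription regulators, from ion channels and receptors and from proteins of vesicle recycling, and in the hippocampus it is known for its part in the weakening of synapses. Its action is opposed by kinases such as protein kinases A and C and the calmodulin-dependent kinases.

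The pattern of the 324 probe sets was the low level of a single array, C1. On the log2 scale, the reference probe set of Ppp3ca measured 10.22 in C1, 12.78 in C2, 13.07 in C3, 13.05 in C4 and 12.81 in C5. In the P-group it measured 13.03 in P1, 12.98 in P2, 12.87 in P3, 12.94 in P4 and 12.82 in P5. C1 thus stood at -2.71 units from the mean of the other 4 C-group rats, whereas the other 9 rats of both groups lay together between 12.78 and 13.07. All 324 probe sets were lowest in C1. Of all 2904 variable probe sets, 641 (22.1%) were lowest there and 1553 (53.5%) were highest there, so C1 stood apart in both directions. The distance of the 324 from the mean of the other C-group rats ran from -2.78 to -0.04 units with a median of -0.88, and 123 of them lay 1 unit or more below it. The median over all 2904 variable probe sets was 0.22. Since the rule used these values, they are given as a description and without a test.

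The mean over the 324 probe sets was 8.48 in C1, 9.37 in C2, 9.50 in C3, 9.47 in C4 and 9.45 in C5. It was 9.36 in P1, 9.47 in P2, 9.44 in P3, 9.49 in P4 and 9.45 in P5. Without C1 the mean of the 4 C-group rats was 9.45 ± 0.05 (SD, n = 4), against 9.44 ± 0.05 (SD, n = 5) in the P-group. Another 50 probe sets had an r of -0.9 or less with Ppp3ca, and their mean was 9.18 in C1 and from 8.76 to 8.83 in the other 9 rats. Patterns set by 1 array were counted over the variable probe sets as an r of 0.9 or more, in size, with an indicator of that array. C1 gave 313 such probe sets that were low in it and 51 that were high, P2 gave 46 low and 57 high, and each of the other 8 arrays gave at most 4 in either direction.

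**Figure D1:**
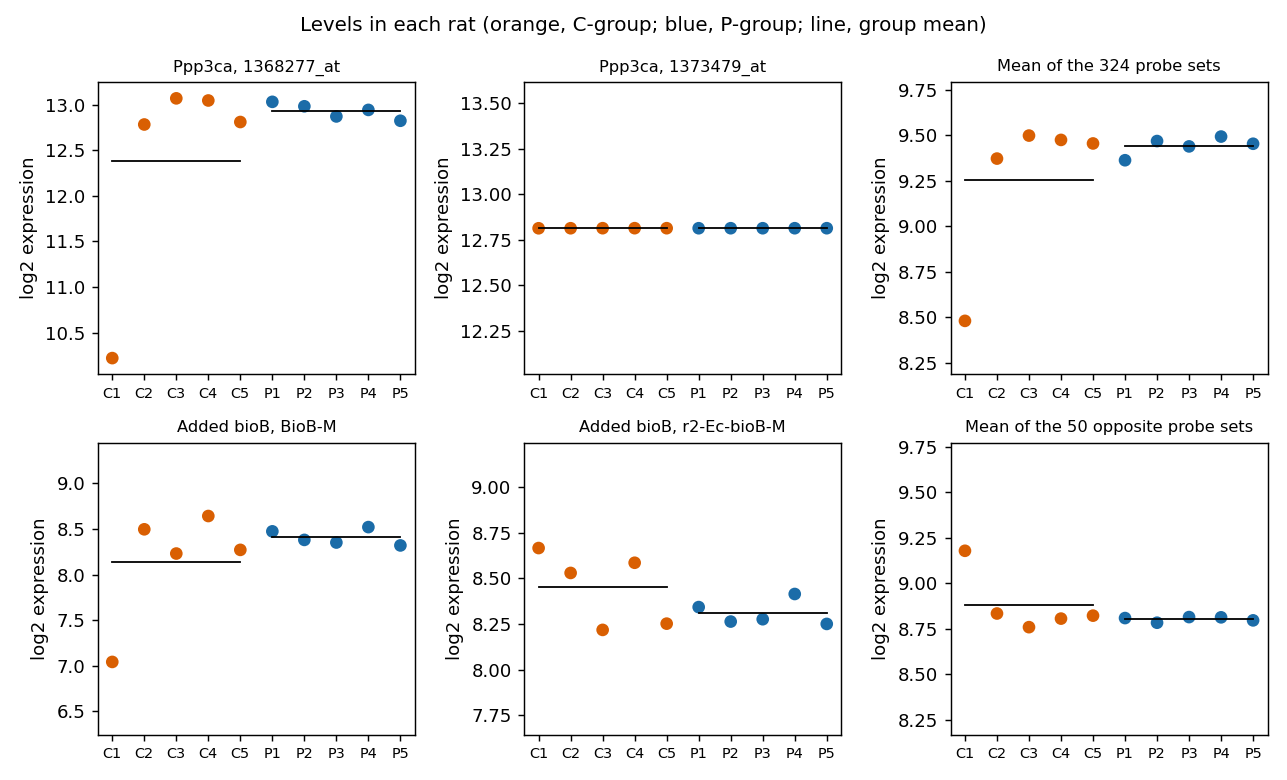
Log2 expression in each of the 10 rats (orange, C-group; blue, P-group; line, group mean; each panel has its own axis) for 2 probe sets of Ppp3ca (the reference first), for the means of the 324 probe sets and of the 50 with the opposite pattern, and for 2 control probe sets of the same added bacterial transcript. The reference probe set, the mean of the 324 and BioB-M are lowest in C1, the opposite probe sets and r2-Ec-bioB-M are highest there, and the second Ppp3ca probe set is level over all rats.

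The same array was low in 1 control that no rat contributes. AFFX-BioB-M_at reads the middle of bioB, a bacterial transcript that is added to every sample at hybridization. Its level was 7.04 in C1 and from 8.23 to 8.64 in the other 9 arrays, with an r of 0.96 with Ppp3ca, and it was the only one of 17 variable control probe sets with an r of 0.9 or more. The other 13 of the 14 variable hybridization controls were highest in C1, by 0.26 to 0.53 units (median 0.33) over the other C-group rats. One of these 13, AFFX-r2-Ec-bioB-M_at, also reads the middle of bioB and measured 8.67 in C1 and from 8.22 to 8.59 in the others. Of 9 control probe sets for the 5-prime, middle and 3-prime parts of rat housekeeping transcripts, only the 5-prime one of beta-actin varied, at 11.11 in C1 and from 11.12 to 11.39 in the others. The part of hybridization, labeling or RNA quality in the low level of C1 was not tested.

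Without C1 the probe sets no longer moved as one. Over the other 9 arrays, the r with Ppp3ca of the 323 other probe sets had a median of 0.12 and ran from -0.81 to 0.91. It was below 0 for 111 of them. Over all 2904 variable probe sets its median was 0.03, and it was below 0 for 1401. An r of 0.9 or more was kept by 1 probe set besides the reference, of Homer1, and an r of 0.8 or more by 4, of Homer1, Plk2, Enc1 and Pou3f1. Among all 2904 variable probe sets, 3 had an r of 0.9 or more over the 9 arrays, those of Ppp3ca, Homer1 and Klf7. Klf7 had not been selected. An r of 0.8 or more was found in 13, of which 5 were selected ones, the reference included. Probe sets outside the selection thus also followed Ppp3ca without C1. These correlations share 9 arrays, and over these Ppp3ca itself spans only 12.78 to 13.07. The probe sets of Nsd2 and Hsbp1, at the lower end, had an r of -0.81 and -0.79 over the 9 arrays although both had passed 0.9 over all 10; these 2 were chosen after their values were seen.

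**Figure D2:**
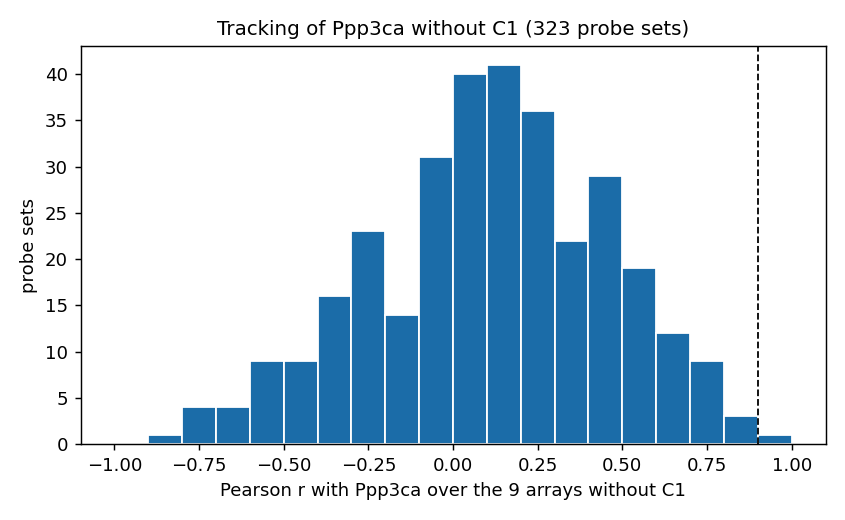
Number of probe sets (vertical axis) by Pearson r with Ppp3ca over the 9 arrays without C1 (horizontal axis, bins of 0.1), for the 323 probe sets besides the reference; the dashed line is at 0.9, the threshold met by all of them over 10 arrays. The median is 0.12, and Homer1 alone lies beyond the line.

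Homer1, a scaffold that links glutamate receptors to the postsynaptic density and whose short form is induced by activity, measured 8.01 in C1, 8.72 in C2, 9.18 in C3, 9.06 in C4 and 8.83 in C5. In the P-group it measured 8.97 in P1, 8.97 in P2, 8.95 in P3, 8.98 in P4 and 8.75 in P5. Its order among the 9 rats was close to that of Ppp3ca, with C3 and C4 at the top and C2, C5 and P5 at the bottom. Plk2 is an activity-induced kinase that acts at synapses. It measured 9.10 in C1, 9.96 in C2, 10.25 in C3 and 10.28 in C4, and from 9.98 to 10.23 in the P-group, with C5 between C2 and C3 and an r of 0.84 over the 9 arrays. Enc1, an actin-binding protein of neurons, had an r of 0.81 and Pou3f1, a transcription factor of field CA1, an r of 0.80. Ppp3ca, Homer1 and Plk2 lay in both groups alike over these 9 arrays, with differences between groups without C1 of -0.003, 0.02 and 0.04 units.

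Upstream sequence was read from RefSeq for the genes of these probe sets, and a promoter was found for 195 of the 236. Each covers 250 bases before and 50 after the start of the gene, 300 in all. It was searched on both strands for 4 motif words, of which none contains another: TGACGTCA (the cAMP response element, bound by CREB), TATTTATA (the MEF2 core), GGAAAA (the core of NFAT sites, calcineurin's own transcription factors) and CCGCCC (the Sp core). The words were held by 10 (5.13%), 1 (0.513%), 38 (19.5%) and 125 (64.1%) of the 195 promoters, and by 1.91%, 1.85%, 24.3% and 34.9% of all 27457 promoters in the table. A match is only a match of letters. The 27457 promoters were not limited to genes that were measured or varied here, so the shares are of unlike sets and nothing is read from them. The 250 bases before the start are shown for Ppp3ca, as the reference, at chr2:227839357-227839606, and for Plk2, which had an r of 0.84 without C1 and holds a full cAMP response element, at chr2:43702286-43702535. Both are on the plus strand of build GRCr8, and the capitals mark the motif words.
Ppp3ca: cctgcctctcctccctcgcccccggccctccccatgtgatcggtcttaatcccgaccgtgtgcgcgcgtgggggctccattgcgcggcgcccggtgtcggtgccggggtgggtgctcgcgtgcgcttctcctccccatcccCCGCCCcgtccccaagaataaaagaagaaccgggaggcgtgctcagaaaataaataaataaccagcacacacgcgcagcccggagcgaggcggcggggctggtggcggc
Plk2: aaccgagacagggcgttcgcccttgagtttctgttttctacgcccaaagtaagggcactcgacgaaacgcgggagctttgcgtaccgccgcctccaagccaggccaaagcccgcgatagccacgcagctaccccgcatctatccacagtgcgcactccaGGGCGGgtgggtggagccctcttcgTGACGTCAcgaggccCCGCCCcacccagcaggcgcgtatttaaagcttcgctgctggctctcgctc
The bases before the start of Ppp3ca hold the Sp core word, those of Plk2 hold the cAMP response element and the Sp core word on both strands, and those of Homer1 hold none of the 4 words.

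The probe sets nearest to Ppp3ca over the 10 arrays, apart from its own, were those of Rab5if, Rbfox1, Sbno1, Skil and Ywhah, each with an r of 0.99. Rbfox1, a splicing regulator of neurons, measured 8.36 in C1, 10.90 in C2, 11.26 in C3, 11.10 in C4 and 11.09 in C5, and 10.97, 10.99, 11.02, 11.08 and 11.03 in P1 to P5. Emc10, a subunit of the complex that inserts membrane proteins at the endoplasmic reticulum, had the largest distance of C1, at 6.65 in C1 against 9.16, 9.61, 9.52 and 9.42 in C2 to C5. It measured 9.33, 9.54, 9.59, 9.73 and 9.48 in P1 to P5. The distance of C1 from the mean of the other C-group rats was -2.06 units in Rab5if, a small membrane protein, and -2.55 in Mfsd4a, a transporter-like protein. In all of these C1 lay far outside the other 9 rats, and those 9 overlapped between the groups.

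At the threshold, the named probe sets just inside were those of Ogt, which attaches N-acetylglucosamine to proteins, of Dock9, which activates Cdc42, and of Resf1, each with an r of 0.90. Ogt was 10.08 in C1 and from 10.35 to 10.51 in the others, Dock9 10.03 and from 10.46 to 10.69, and Resf1 6.85 and from 7.64 to 8.11. Just outside, with an r that rounds to the same value, were Ago1, an Argonaute protein of microRNA silencing, at 8.73 in C1 and from 9.16 to 9.47 in the others, Dusp6, a phosphatase of ERK, at 7.84 and from 8.46 to 9.08, and Hapln4, a matrix link protein, at 9.26 and from 9.73 to 10.10. All 6 were lowest in C1, on either side of the threshold. In all, 77 variable probe sets had an r from 0.85 to below 0.9.

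**Figure D3:**
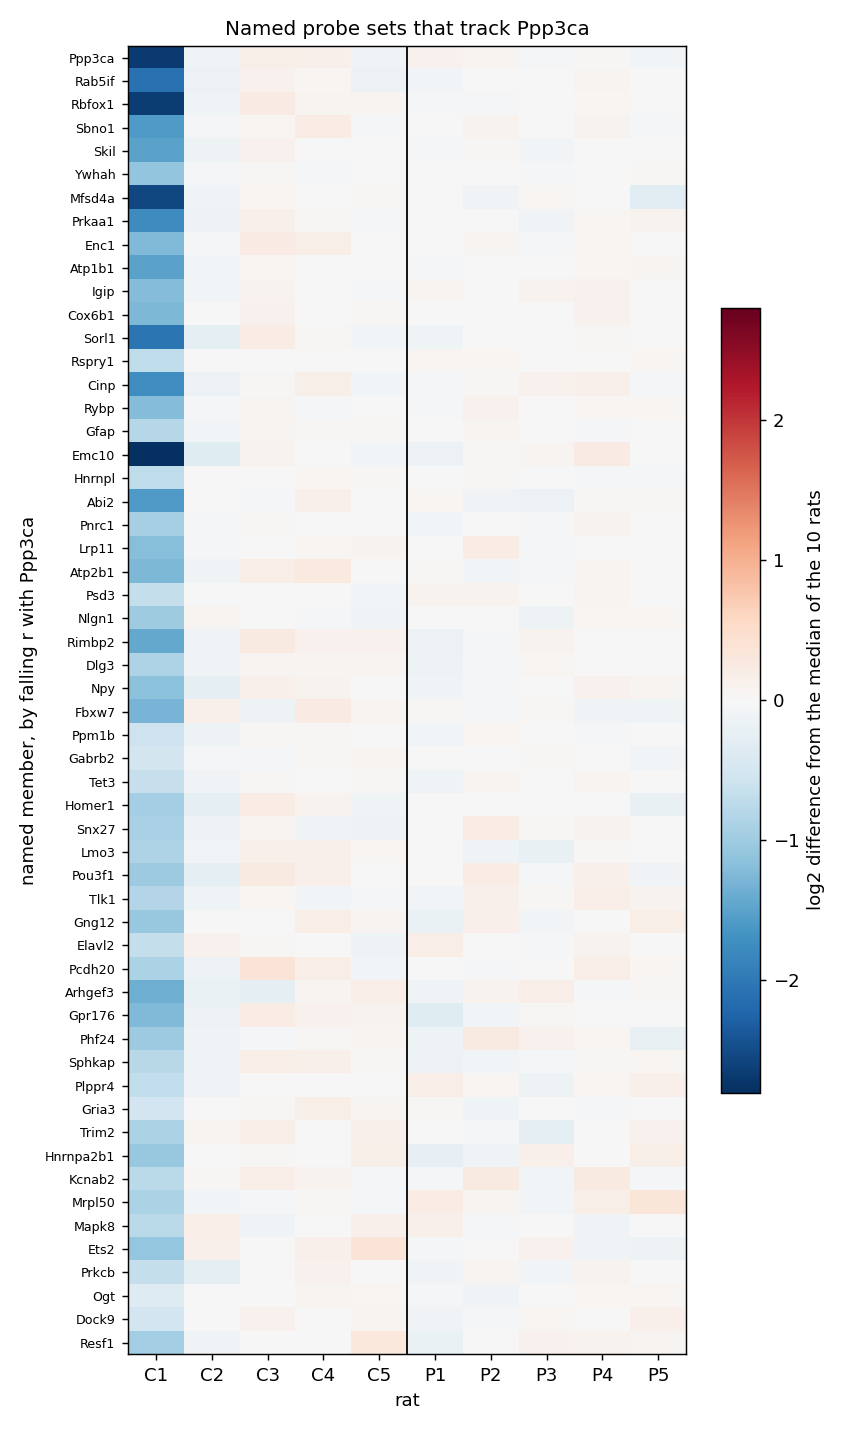
Log2 difference of each rat from the median of the 10 rats (color; columns, rats; the line divides the C-group from the P-group) for the 56 named genes of the 324 probe sets, sorted by falling r with Ppp3ca. The first column, C1, is blue in every row, from -2.78 units against the other C-group rats in Emc10 to -0.39 in Ogt, and the other 9 columns are pale.

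By known role, 165 of the 236 genes could be placed in 8 groups, which were drawn up after the genes were known. All of these genes had been selected as low in C1, so the medians by role are a description. The median distance of C1 ran from -0.79 units in the 27 genes of transcription, chromatin and DNA to -0.95 in the 20 of small GTPase regulation and the cytoskeleton. The 24 genes of synapses, receptors, channels and adhesion had a median of -0.91, the 19 kinases, phosphatases and calcium-handling genes -0.89, the 22 of membrane traffic, endoplasmic reticulum and lysosome -0.87, the 17 of the ubiquitin system, proteasome and chaperones -0.85, the 20 mitochondrial genes -0.83 and the 16 of RNA binding -0.80.

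Among kinases and phosphatases, Prkaa1, the catalytic alpha subunit of the energy sensor AMPK, measured 7.19 in C1, 8.78 in C2, 9.09 in C3, 8.98 in C4 and 8.91 in C5, and from 8.84 to 9.04 in the P-group. Ywhah, the eta form of the 14-3-3 adaptors that bind phosphorylated proteins, measured 11.55 in C1 and from 12.58 to 12.68 in the others. The distance of C1 from the other C-group rats was -0.55 units in Ppm1b, a magnesium-dependent phosphatase, -0.64 in Prkcb, the beta form of protein kinase C, and -0.82 in Mapk8, the JNK1 kinase. Both probe sets of Dclk1, a microtubule-binding kinase, were lowest in C1, at a distance of -1.16 and -0.67 units. Those of Atp2b1, a pump that moves calcium out of the cell, stood at -1.35 and -1.17 units.

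At the synapse, Atp1b1, the beta subunit of the sodium pump, measured 12.40 in C2, 12.53 in C3, 12.48 in C4 and 12.49 in C5, and 12.45, 12.49, 12.49, 12.54 and 12.56 in P1 to P5, with C1 at a distance of -1.48 from the other C-group rats. Gria3, an AMPA receptor subunit, and Gabrb2, a GABA-A receptor subunit, had distances of -0.61 and -0.52 units. The adhesion molecule Nlgn1 and the scaffold Dlg3 stood at -0.96 and -0.90 units, Rimbp2, which tethers calcium channels at release sites, at -1.53, and Npy, a neuropeptide of interneurons, at -1.15. In each of these C1 lay below all 9 other rats. Beyond the synapse, the distance was -2.03 units in Sorl1, a sorting receptor for the amyloid precursor protein, and -1.84 and -0.50 in the 2 probe sets of Tiam1, an activator of Rac1. It was -1.29 in Cox6b1, a subunit of cytochrome c oxidase, and -0.72 in Hnrnpl, a splicing factor. Abi2, of the actin-branching WAVE complex, measured 9.57 in C1 and from 10.99 to 11.28 in the others.

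The name of a neuronal pattern was checked against markers of cell types, with counts to be read beside the 236 member genes among 1789 variable genes and the 53.5% and 22.1% of variable probe sets that were highest and lowest in C1. In these and later lists, levels and counts of highest or lowest use the variable probe set of largest SD of each gene. That probe set need not be the member. Of 14 pan-neuronal markers, 9 varied, none was among the 324, and 8 of the 9, such as Map2, Nefl, Syt1 and Gap43, were highest in C1. The mean of the 9 was 10.23 in C1 and from 9.82 to 10.02 in the other rats. None of 4 variable markers of excitatory neurons was a member, and none was highest or lowest in C1. Of 6 variable interneuron genes, Npy was a member and lowest in C1, and Gad2, Slc32a1, Sst and Vip were highest there. Of 4 variable genes of fields CA1 and CA3, Pou3f1 was a member, Wfs1 was also lowest in C1, and Bok and Fibcd1 were highest, with a median distance of C1 of -0.38 units. The dentate granule cell genes Prox1 and Calb1 were lowest and highest in C1, and neither was a member.

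Of 6 variable astrocyte genes, Gfap was a member and the other 5, such as Aqp4 and Gja1, were highest in C1. Gfap, the filament of astrocytes, measured 10.71 in C1, 11.42 in C2, 11.59 in C3, 11.54 in C4 and 11.55 in C5, and from 11.47 to 11.59 in the P-group. All 3 variable microglial markers were highest in C1. Of 7 variable oligodendrocyte markers, Mag, Mbp and Cnp were lowest and Mog and Ermn highest. Pan-neuronal markers were thus mostly highest in C1 and none was lowest there. The lists of interneurons, of fields CA1 and CA3 and of dentate granule cells held markers that moved both ways. The counts of members in the neuronal lists, 0 to 1 a list, are too few to be told from the share over all variable genes. The probe sets are therefore described only as tracking Ppp3ca. In bulk tissue, fewer cells of a type and less RNA per cell cannot be told apart.

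Markers of a neighboring tissue were high in C1. Of 17 choroid plexus genes, 15 were measured and all 15 varied, 13 of them highest in C1, and their mean was 9.22 in C1, from 6.63 to 8.80 in the other C-group rats and at most 8.77 in the P-group. None was among the 324, and the part of tissue composition in the pattern was not tested.

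Genes that act with calcineurin are counted beside the shares over all genes. Of 14217 genes with 1 symbol, 1789 varied, and 236 of these were members. Of 11 calcineurin subunits and regulators, 10 were measured and 2 varied. Only Ppp3ca was among the 324, as the reference and so by the rule. Of 15 calmodulin and CaM kinase genes, 12 were measured and 8 varied, and none was a member or was called in either direction. Of 15 substrates and targets of calcineurin, 3 varied, none was a member and 1 was called higher in the C-group by rank products. Counts this small do not show that such genes track Ppp3ca less often than others.

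Other lists were described in the same way. Dlg3, Homer1 and Nlgn1 were the only 3 of 12 postsynaptic scaffold genes that varied, and all were members. In the RNA-binding list, Elavl2, Hnrnpa2b1 and Rbfox1 were members among 5 variable genes, and among the sodium and calcium pumps Atp1b1 and Atp2b1 were members of 5. One gene each was a member in the lists of other phosphatases (Ppm1b), MAP kinases (Mapk8), protein kinases A and C (Prkcb), glutamate receptors (Gria3), GABA receptors (Gabrb2), the ubiquitin system (Fbxw7) and small GTPases (Arhgef3), out of 2, 1, 4, 5, 4, 4 and 7 variable genes. None of 8 variable genes of vesicle release and none of 11 of the cytoskeleton and axon transport was a member, and 7 and 11 of these were highest in C1. None of 5 variable immediate early genes was a member, with Arc, Egr1 and Nr4a1 lowest and Bdnf highest in C1.

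Other probe sets of the same genes gave a measure that the rule had not selected as low. There were 223 of them for 127 of the 236 genes. They include Ppp3ca itself: its second probe set was at 12.81 in every rat, close to the level of the reference in the 9 higher rats, and the remaining one was at 6.74 in every rat. Of the 223, 196 were constant (an SD of 0.01 or less), and the largest difference of C1 among them was 0.01 units. On this small scale, the r of the 196 with Ppp3ca had a median of -0.15. It was below 0 for 109 of them and 0.9 or more for 15. For 23 genes such a constant probe set was the brighter one. The summary method used by the authors sets a probe set to a constant where its probes share no variation, so a constant value does not show that the transcript was level.

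The other 27 probe sets varied, over 22 genes, and C1 was low in some of them and not in others. It was the lowest of the 10 rats in 11 of the 27 and the highest in 9, against 22.1% and 53.5% of all 2904 variable probe sets. The 2904 include the 324, all lowest in C1, and the 27 hold none of these, so the shares are of unlike sets. Their distance of C1 from the other C-group rats had a median of -0.04 units and ran from -0.77 (Lmo3) to 0.42 (Elavl2), with 15 below and 12 above 0. The median over all variable probe sets, the 324 included, was 0.22. The members of the same 22 genes had a median of -0.94 and ran from -2.03 to -0.57. The r of the 27 with Ppp3ca ran from -0.87 (Snx27) to 0.88 (a second probe set of Sorl1), and by construction none reached 0.9: a second probe set that tracked Ppp3ca, as in Atp2b1, Dclk1 and Tiam1, was itself a member. In Gria3, the member measured 10.12 in C1 and from 10.54 to 10.84 in the others, whereas its other variable probe set measured 9.26 in C1, within the range of 8.52 to 9.37 of the others. Homer1 had 3 other variable probe sets, with C1 at a distance of -0.59, 0.15 and 0.09 units, against -0.93 for its member. In the 4 other variable probe sets of Sorl1 the distance was -0.42, -0.24, -0.05 and -0.04 units, against -2.03 for its member. Probe sets of a gene can read different transcript ends or isoforms, and where each one lies was not analysed here.

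**Figure D4:**
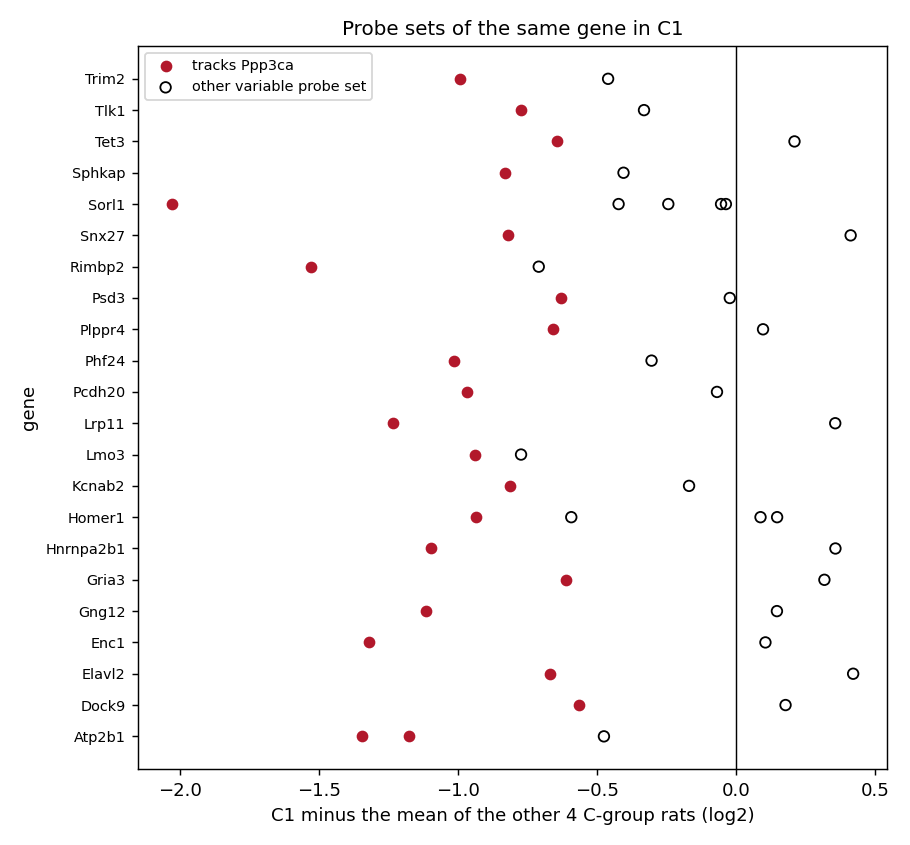
Distance of C1 from the mean of the other 4 C-group rats in log2 units (horizontal axis) for the 22 genes (vertical axis) with both a probe set that tracks Ppp3ca (filled) and another variable probe set (open). Every filled point lies at -0.57 or below, while the open points lie on both sides of 0, from -0.77 to 0.42.

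The difference between the diets was set by the same array. Over all 10 rats every one of the 324 probe sets had a lower mean in the C-group, with differences from -0.66 to -0.006 units, a mean difference (C-group minus P-group) of -0.19 and a median of -0.17. The median over all 2904 variable probe sets was 0.07. Without C1 the mean difference was 0.007 and the median 0.002, with 151 probe sets lower and 173 higher in the C-group and a range from -0.17 to 0.19. Ppp3ca differed by -0.54 ± 0.53 (standard error from limma, n = 5 and 5) with C1 and by -0.003 without it. Since every member was chosen for being low in C1 along with Ppp3ca, the common direction over 10 rats follows from the choice.

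Rank products, the test named in the study's methods, called 129 of 31042 probe sets (0.416%) lower in the C-group and 620 (2.0%) higher at a false discovery rate (FDR) under 0.05. It called 4.44% of the 2904 variable probe sets lower and 21.3% higher, which accounts for all of these calls. Of the 324, it called 44 (13.6%) lower, among them Ppp3ca, Emc10, Prkaa1, Atp1b1, Sorl1, Rybp, Cinp, Igip and Rab5if, and nothing is read from this count because the rule used the same arrays. It also called 2 of the 324 higher, Trim2, a ubiquitin ligase, and Ets2, a transcription factor, although their mean difference was -0.06 units each. Without C1 these 2 differed by 0.14 and 0.19 units in the other direction. limma called 0 of 31042 (0%) at an adjusted p under 0.05. Its lowest adjusted p was 0.927, 915 probe sets had an unadjusted p under 0.05 and none of the 324 did.

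Without C1, rank products called 164 probe sets (0.528%) lower and 61 (0.197%) higher in the C-group, as shares of all 31042. The share of variable probe sets called without C1 was not counted. Of the 324, 12 were called lower, all of them among the 44, and none higher, and nothing is read from this count. The named ones were Chmp6, Fam131a, Mob4, Mrpl50, Psd3, Snx27, Tlk1, Tmx4 and Zfp770, and the probe set shared by Hnrnpk and its pseudogene. Mrpl50, a protein of the mitochondrial ribosome, measured 7.46 in C2, 7.52 in C3, 7.57 in C4 and 7.51 in C5, and 7.76, 7.62, 7.47, 7.71 and 7.89 in P1 to P5. The groups overlapped through P3, and the difference without C1 was -0.17 units. Snx27, which returns receptors from endosomes to the cell surface, measured 9.07, 9.27, 9.08 and 9.06 in C2 to C5 and 9.22, 9.42, 9.24, 9.30 and 9.19 in P1 to P5, a difference of -0.15 with C3 within the range of the P-group. Its other variable probe set differed by -0.04 without C1. Tlk1, a kinase of chromatin assembly, differed by -0.12, and its other variable probe set by 0.15 in the opposite direction.

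**Figure D5:**
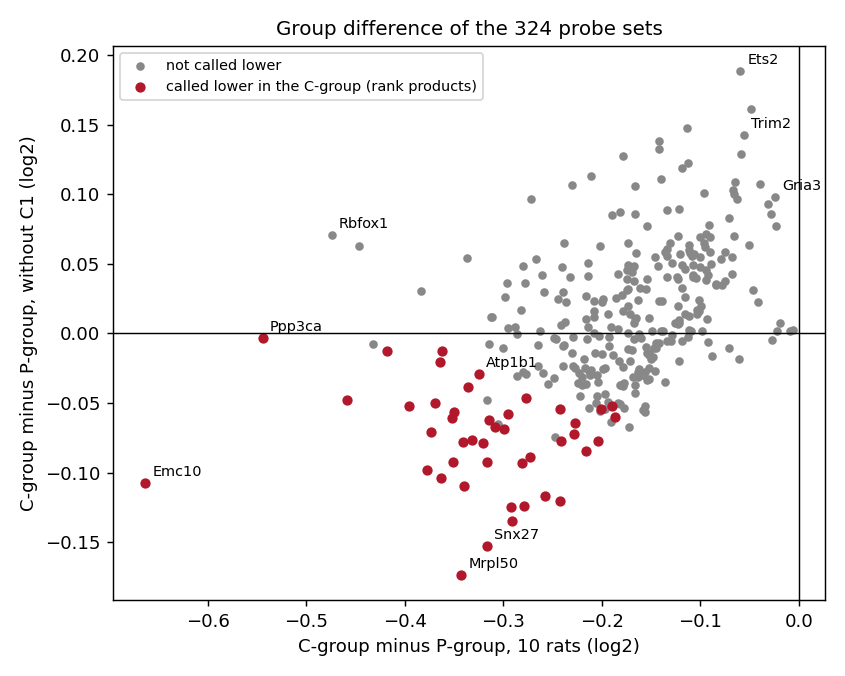
C-group minus P-group difference in log2 units over the 10 rats (horizontal axis) and without C1 (vertical axis) for the 324 probe sets; red, the 44 called lower in the C-group by rank products over all 10 rats. All points lie left of 0, and without C1 they spread around 0 from -0.17 to 0.19, with Ppp3ca at -0.003.

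Of the 27 other variable probe sets, rank products called 1 lower in the C-group, of Homer1 (the one at -0.59 in C1), and 3 higher, of Dock9, Enc1 and Gria3. Of all 2904 variable probe sets it called 4.44% lower and 21.3% higher, so these counts do not stand above the background. Their mean difference was 0.03 units over 10 rats. Enc1 shows both directions, with a difference of -0.20 in its member and of 0.24 in the other probe set. None of the 223 passed limma.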

How the data were processed

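Hippocampal RNA of 10 rats was measured on 1 array each. Per the study's methods, the authors used qFARMS (R 2.7.2) for normalization and summary, a method that shrinks a probe set toward a constant where its probes share no variation, and they deposited log2 values. These values were used as deposited. Scanner files were not used here, so the summary could not be repeated. Arrays give no count of reads, and precision is limited by the 5 rats per group. Control probe sets (57 of 31099) served only as controls. Symbols came from the platform annotation given with the values, and a probe set given more than 1 symbol was not assigned to a single gene.

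Members were the probe sets with an SD above 0.01 and an r of 0.9 or more with the reference probe set of Ppp3ca. Rank products was computed without pairing, from 25 differences between rats and 100 permutations within arrays (Python 3.11.15, numpy 2.4.6, pandas 2.3.3). limma 3.58.1 (R 4.3.3; lmFit, eBayes, Benjamini-Hochberg) gave standard errors and adjusted p-values over all 31042 probe sets. The scripts were tested on simulated data. Promoters came from RefSeq tables of build GRCr8; probe positions and proteins were not analysed here.

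The members and lists were chosen with earlier results of these data known. The genes named were Ppp3ca, the 20 with the highest r, 3 on each side of the threshold, every member of a list or with another variable probe set, and the 5 with the largest difference without C1. Others were named for their known role, or where a count was small, after their values were seen. Where a gene had several members, the one of highest r stands for it, but list levels and calls use its variable probe set of largest SD. Alternatives changed the r, the SD filter, the scaling, the probe sets tested, the test, the pairing and the arrays used.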

Additional observations from a re-analysis of the deposited data

Results flagged for a closer look

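In the groups of 5 rats, a value was taken as standing apart when its gap to the nearest rat, as a share of the range of the group, was above 0.71 (Dixon's criterion, which chance meets in about 1 group in 20). It was applied to 122 groups of named genes, means and controls, and met in 55. Because the members were chosen for their likeness to Ppp3ca, the repeats of C1 are 1 pattern and not separate results. The rule used these values of C1, so the rate given for chance does not apply to them and the ratios are a description.

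C1 was low in the C-group with a ratio of 0.96 for Rspry1, 0.94 for Ywhah, Mfsd4a and Hnrnpl, 0.92 for Atp1b1 and Cox6b1, 0.91 for Abi2 and Pnrc1, 0.9 for Ppp3ca and Rybp, 0.88 for Rbfox1, Lrp11 and Mrpl50, 0.87 for Rab5if and Psd3, 0.86 for Igip, Hnrnpa2b1 and Plppr4, 0.85 for Sbno1, Emc10 and Trim2, 0.84 for Skil, Prkaa1 and Gng12 and 0.83 for Ogt and Nlgn1. It was low with a ratio of 0.82 for Cinp and Phf24, 0.81 for Gfap, Dlg3 and Tlk1, 0.8 for Enc1, Dock9 and Tet3, 0.79 for Sorl1, Rimbp2 and Snx27, 0.78 for Lmo3, 0.77 for Gabrb2, 0.76 for Fbxw7, 0.75 for Gria3, 0.74 for Atp2b1, Ets2 and Gpr176, 0.73 for Kcnab2 and 0.71 for Ppm1b. The mean of all members had a ratio of 0.88 and the added control AFFX-BioB-M_at of 0.74, both low in C1.

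In the P-group, P4 was high in Cox6b1 with a ratio of 0.9, P5 was low in Homer1 with 0.9, and P2 was high in Lrp11 with 0.77. P1 was low in Sorl1, Ago1 and Gpr176 with ratios of 0.77, 0.75 and 0.71, and P3 was low in Nlgn1 with 0.76. The values behind these are small: Homer1 was 8.75 in P5 and from 8.95 to 8.98 in the other P-group rats, and Cox6b1 was 11.61 in P4 and from 11.48 to 11.49 in the others.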

How the results depend on the processing

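The selection rests on C1. It left 324 probe sets over all arrays, and from 3 (without C1) to 400 (without P1) when 1 array was left out; without C1, 2 of the 3 were among the 324, Ppp3ca and Homer1. Spearman's rho of 0.9 or more left 5, an r of 0.95 or more 180, and no filter on the SD 1159; median centring and quantile normalization each left 331. The mean difference of the members was -0.25 to -0.17 with any array but C1 left out and 0.007 without C1, and that of Ppp3ca was -0.72 to -0.52 and -0.003. In 45 members with an r of 0.5 or more over the other 9 arrays, a setting chosen after seeing the data, the mean difference over 10 rats was -0.23. Of the 59 named genes, 32 changed sign without C1 and 0 under any other setting, among the called ones Trim2 (0.14, against -0.13 to -0.01 with any other array left out) and Ets2 (0.19, against -0.17 to -0.02).

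Counts of calls depend on the settings. Those of members are not set beside the count over all probe sets in each setting, so nothing is read from them. The members called lower, 44 here, were 0 to 110 with 1 array left out (12 without C1, 110 without C3, 76 without C5, 27 without P1, 4 without P2, 14 without P3, 0 without P4, 8 without P5), 0 when only probe sets with an SD above 0.01 were ranked or limma took the place of rank products, 14 among probe sets at or above the median level, and 29 with an r of 0.95 or more. Over all probe sets, the 129 calls of lower ranged from 10 to 221 and the 620 of higher from 61 to 789 with 1 array left out. They were 0 and 9 with only variable probe sets, and 37 and 157 at or above the median level. For the other probe sets of the same genes, the 4 calls ranged from 0 to 8 with 1 array left out, with 0 among variable probe sets only, 1 at or above the median level and 0 by limma. The causes of these changes were not tested. limma called 0 probe sets under every alternative.

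Rats of the 2 groups share only replicate numbers. The labels give no other link between them, so the numbers were not taken as pairs. The correlations of deviations from the group means, between rats of the same number, were 0.28, -0.01, -0.39, 0.48 and 0.45 for numbers 1 to 5. These values do not settle whether the numbers are pairs. With the number as a replicate block, rank products called 132 members and 338 probe sets lower, 912 higher and 10 of the other probe sets of the same genes; the mean difference stayed at -0.19.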
